A study of Mus musculus with 20 samples.

Results

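The comparison of old control with young control hypothalamus covers 8 of the 20 RNA sequencing libraries of a mouse diet study, chosen by their labels alone. The old control group held 4 libraries from the hypothalamus of 25-month-old male C57BL/6J mice that had eaten the control diet for 5 months. The young control group held 4 libraries from 3-month-old male C57BL/6J mice that had eaten the control diet for 1 week. All the animals were of the same wild-type inbred strain and none of these 8 libraries came from a mouse on the test diet. Age and time on the control diet therefore differ together and cannot be told apart. A further 3 libraries, from 25-month-old mice on Gly-Low, a diet meant to lower glycation, entered the statistical fit only to help estimate the spread. The study's design text names old against young controls as its measure of age. Whether each library is a separate animal is not stated in the labels, so each p-value reflects variation among these samples only, which may be technical.

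The hypothalamus holds the neurons that set hunger, body temperature, growth, stress and reproduction, and releases much of its signal as peptides. Microglia, the resident macrophages of the brain, survey this tissue, clear debris through lysosomes and complement, and in aged or injured brain take up a state marked by receptors such as Trem2 and Clec7a. Class I histocompatibility molecules display peptides from inside the cell to T cells, need the light chain B2m and peptide transporters, and are induced by interferon. These genes and the hypothalamic peptides were described from 35 gene lists with 497 distinct genes, of which 474 had enough counts to be tested.

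Total counts ran from 17955746 to 27399753 in old control and from 15848372 to 24557277 in young control. Hypothalamic peptide genes were present in all 8 libraries. Oxt had 96.4 to 207 CPM in old control and 185 to 597 CPM in young control, and Hcrt had 56.3 to 243 CPM in old control and 150 to 326 CPM in young control. CPM here means counts scaled to a common library size with TMM. Kiss1, a marker of reproductive neurons, had 0 counts in all 8 libraries. The libraries differed within each group in how short and long transcripts were represented. A length slope per library, which is positive where long transcripts are over-represented, was 0.19, 0.04, −0.24 and 0.18 in old control 1 to 4 and −0.12, −0.32, −0.16 and 0.28 in young control 1 to 4. The mitochondrial share of counts ran from 5.54% to 15.8% in old control and from 5.73% to 17.2% in young control, with the highest shares in old control 3 and young control 2, the libraries of lowest slope. The groups overlap in both measures, and the first principal component, with 58.3% of the variance, separates libraries within each group.

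Marker genes of neighbouring tissues also differed between libraries. Erythrocyte genes summed to 905, 1078, 913 and 1801 CPM in old control 1 to 4, and to 74.0, 144, 396 and 64.5 CPM in young control 1 to 4, and the groups did not overlap. All 7 erythrocyte genes had a positive log2 fold change, with a median of 2.91, and none was at 0 over a whole group. Meningeal fibroblast genes summed to 637, 543, 1232 and 651 CPM in old control and to 1018, 2002, 4508 and 713 CPM in young control, with young control 3 the highest. Most of each sum was 1 gene, Ptgds, so the sums mainly follow that gene. Ptgds had 550, 455, 1124 and 568 CPM in old control and 947, 1827, 4198 and 635 CPM in young control. Pituitary genes summed to 26.2, 789, 277 and 51.2 CPM in old control and to 113, 64.3, 27.2 and 35.6 CPM in young control, with old control 2 and 3 the highest.

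**Figure D1:**
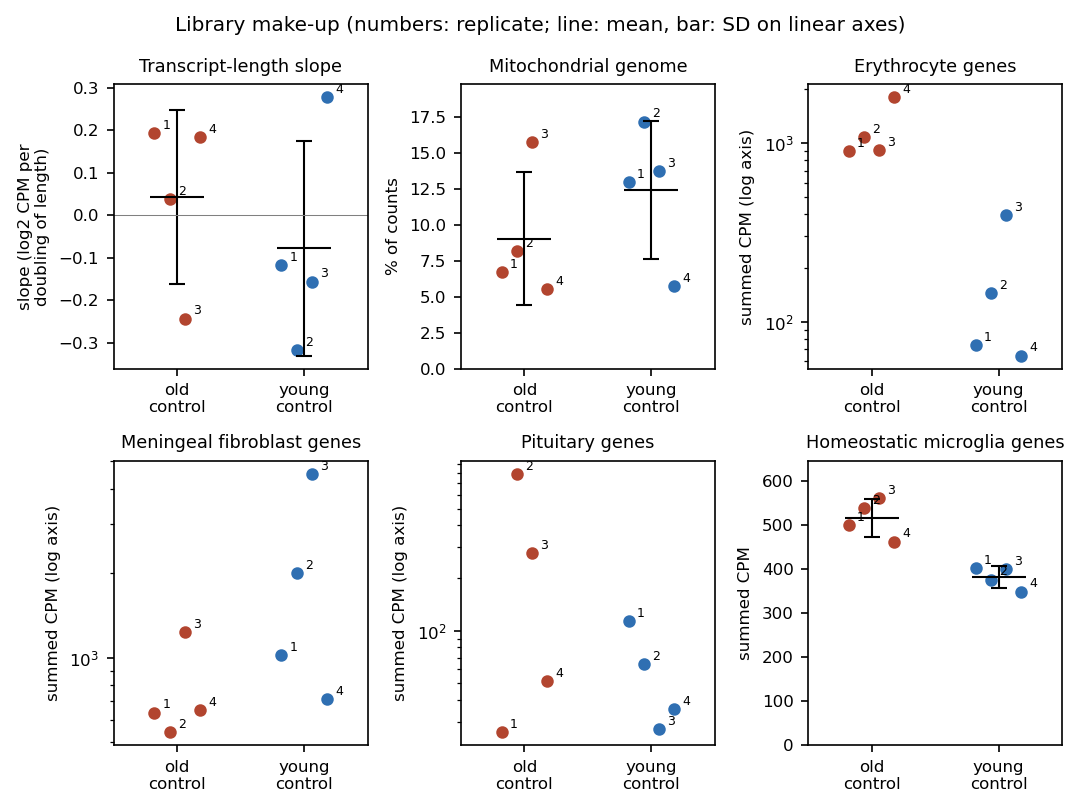
Each point is 1 library, numbered by replicate, with old control left and young control right. The panels show the length slope, the mitochondrial percent of counts and the summed CPM of 4 marker lists, of which the erythrocyte, meningeal and pituitary panels have log axes; horizontal lines and bars on the linear axes are the mean and SD of 4 libraries. The erythrocyte and microglia panels show no overlap between the groups, with 905 to 1801 CPM in old control against 64.5 to 396 CPM in young control for erythrocyte genes. Most of each meningeal sum is Ptgds.

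Of 18281 genes tested, 6 differed between old and young controls at an adjusted p under 0.05 (edgeR's quasi-likelihood test), which is 0.0328% of those tested. All 6 were higher in old control, and 0 were lower. At an unadjusted p under 0.05 there were 1663 genes (9.1%), 692 higher (3.79%) and 971 lower (5.31%). DESeq2 called 388 genes (2.12%), 211 higher (1.16%) and 177 lower (0.969%), with all 6 among them. With the length slope as a covariate edgeR called 441 genes (2.41%), 218 higher (1.19%) and 223 lower (1.22%), again with all 6 among them. Without any model, the libraries of the groups did not overlap for 469 genes that were higher in old control (2.57%) and 570 that were lower (3.12%). The median log2 fold change over all genes tested was 0.02. The 6 genes were Mpeg1, H2-K1, H2-Q6, Clec7a, Ighm and E230025N22Rik, and the first 5 belong to macrophages, antigen presentation or antibody production.

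The regions before the start of 4 of these genes are shown because the genes rose together, and because H2-K1 and H2-Q6, both in the histocompatibility region, are alike there. Each line gives the 250 bases before the gene's start from RefSeq (GRCm38.p6), written 5′ to 3′ on the gene's strand. For the class I genes, capitals mark the runs of at least 14 bases that their upstream regions share. In Clec7a, capitals mark a match to GAGGAA, and Mpeg1 has no match to the sequences searched for below.
H2-K1 (chr17:34000348-34000597, minus strand): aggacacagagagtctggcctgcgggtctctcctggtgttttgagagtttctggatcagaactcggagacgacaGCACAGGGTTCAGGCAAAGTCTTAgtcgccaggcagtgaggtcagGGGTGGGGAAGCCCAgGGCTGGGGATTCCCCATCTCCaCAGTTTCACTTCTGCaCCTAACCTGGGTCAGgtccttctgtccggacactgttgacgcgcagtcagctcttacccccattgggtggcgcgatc
H2-Q6 (chr17:35424600-35424849, plus strand): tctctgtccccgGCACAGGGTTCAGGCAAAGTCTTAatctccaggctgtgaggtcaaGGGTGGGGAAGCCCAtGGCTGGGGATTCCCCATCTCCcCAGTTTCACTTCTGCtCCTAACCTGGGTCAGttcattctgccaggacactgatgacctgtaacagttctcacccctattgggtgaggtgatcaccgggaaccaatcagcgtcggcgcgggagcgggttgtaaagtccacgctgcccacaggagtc
Clec7a (chr6:129472780-129473029, minus strand): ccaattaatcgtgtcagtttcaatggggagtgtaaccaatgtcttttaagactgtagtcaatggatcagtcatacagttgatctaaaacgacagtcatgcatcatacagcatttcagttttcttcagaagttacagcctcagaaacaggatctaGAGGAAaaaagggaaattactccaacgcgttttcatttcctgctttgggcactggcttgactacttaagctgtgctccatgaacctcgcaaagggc
Mpeg1 (chr19:12460520-12460769, plus strand): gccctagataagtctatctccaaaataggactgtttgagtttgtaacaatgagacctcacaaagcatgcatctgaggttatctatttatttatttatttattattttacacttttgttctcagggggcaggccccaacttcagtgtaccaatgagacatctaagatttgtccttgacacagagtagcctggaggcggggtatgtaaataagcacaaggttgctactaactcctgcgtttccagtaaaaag
The class I regions share 5 runs of 24, 15, 21, 15 and 15 bases in the same order, each found in 4 to 7 of 32851 promoters of this length. As background, the upstream regions of classical class I genes are known to carry a site for NF-κB family factors beside an interferon response sequence. A search on both strands for the core of an interferon response element (GAAA, any 2 bases, GAAA again) matched none of these 4 regions and 2.98% of all promoters. It counted these exact letters only, so it does not show that the regions lack an interferon response sequence. GAGGAA, a sequence bound by ETS factors such as PU.1, matched once, in Clec7a, 96 bases before the start on the gene's strand. It matched 23.3% of all promoters, and shorter or variant ETS sites were not searched for. A match is a description of letters, not of binding.

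Mpeg1 (chromosome 19, 12460779 to 12465283) encodes macrophage-expressed perforin-2, a pore-forming protein directed at engulfed bacteria. It had 96.2, 125, 118 and 87.9 CPM in old control 1 to 4, and 29.2, 37.8, 28.8 and 25.7 CPM in young control 1 to 4. Every old control lay above every young control. It rose in old control by 1.81 ± 0.18 (SE) on the log2 scale (adjusted p = 0.0103), with means of 107 ± 17.5 CPM in old control and 30.4 ± 5.19 CPM in young control (SD, n = 4 each). The call was lost without old control 2, young control 1 or young control 3 (highest adjusted p = 0.119), while the fold change stayed between 1.73 and 1.93 when any 1 library was left out.

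H2-K1 (chromosome 17, 33996017 to 34000347) encodes a classical class I heavy chain. It had 82.2, 94.8, 96.9 and 89.4 CPM in old control 1 to 4, and 45.7, 51.5, 43.6 and 40.6 CPM in young control 1 to 4. The groups were apart and the libraries of each lay close together. H2-K1 rose by 1.00 ± 0.12 (adjusted p = 0.0307). H2-Q6 (chromosome 17, 35424850 to 35430055), a non-classical class I gene, had 3.99, 4.00, 7.2 and 6.21 CPM in old control, and 0.597, 0.366, 0.710 and 1.05 CPM in young control. It was low in both groups, with 492 counts over the 4 old controls and 59 over the 4 young controls, and rose by 2.94 ± 0.36 (adjusted p = 0.0307). Of the 100-base windows of its transcripts 13% are shared with other genes, mainly H2-Q7, against 0.957% for H2-K1, so some reads of H2-Q6 cannot be placed with certainty. H2-K1 kept its call only when young control 2 was the library left out, and H2-Q6 only when it was young control 2 or young control 4; otherwise the adjusted p reached up to 0.213.

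Clec7a (chromosome 6, 129461591 to 129472779) encodes Dectin-1, a receptor for fungal glucans and a marker of activated microglia. It had 6.10, 8.40, 5.96 and 7.31 CPM in old control 1 to 4, and 0.331, 0, 0.577 and 0.150 CPM in young control 1 to 4. The young controls held 22 counts in all and young control 2 none, against 617 counts in the old controls. Clec7a rose by 4.66 ± 0.62 (adjusted p = 0.0473), and kept its call only when young control 2 was left out. E230025N22Rik (chromosome 18, 36684923 to 36695925) had 1.12, 1.92, 1.19 and 1.90 CPM in old control, and 0.0663, 0.122, 0 and 0.0374 CPM in young control. Its 137 counts in old control stand against 4 in young control, so the size of its log2 fold change, 4.75 ± 0.66 (adjusted p = 0.0473), rests on few reads, and the call was likewise kept only without young control 2.

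Ighm (chromosome 12, 113418558 to 113422730) encodes the constant part of the immunoglobulin M heavy chain, which B cells and plasma cells make. It had 23.9, 27.4, 26.7 and 16.8 CPM in old control 1 to 4, and 7.76, 6.28, 9.85 and 7.48 CPM in young control 1 to 4. The lowest old control, old control 4, was above the highest young control, and Ighm rose by 1.59 ± 0.22 (adjusted p = 0.0473). Its call was lost whichever library was left out, with a lowest adjusted p of 0.0510. The old controls also had the higher erythrocyte sums, from 905 to 1801 CPM against 64.5 to 396 CPM in young control. With the erythrocyte level as a covariate the log2 fold changes of the 6 genes were 1.85 for Mpeg1, 1.01 for H2-K1, 3.08 for H2-Q6, 3.71 for Clec7a, 4.21 for E230025N22Rik and 1.62 for Ighm, and 0 genes were called (779 at an unadjusted p under 0.05).

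**Figure D2:**
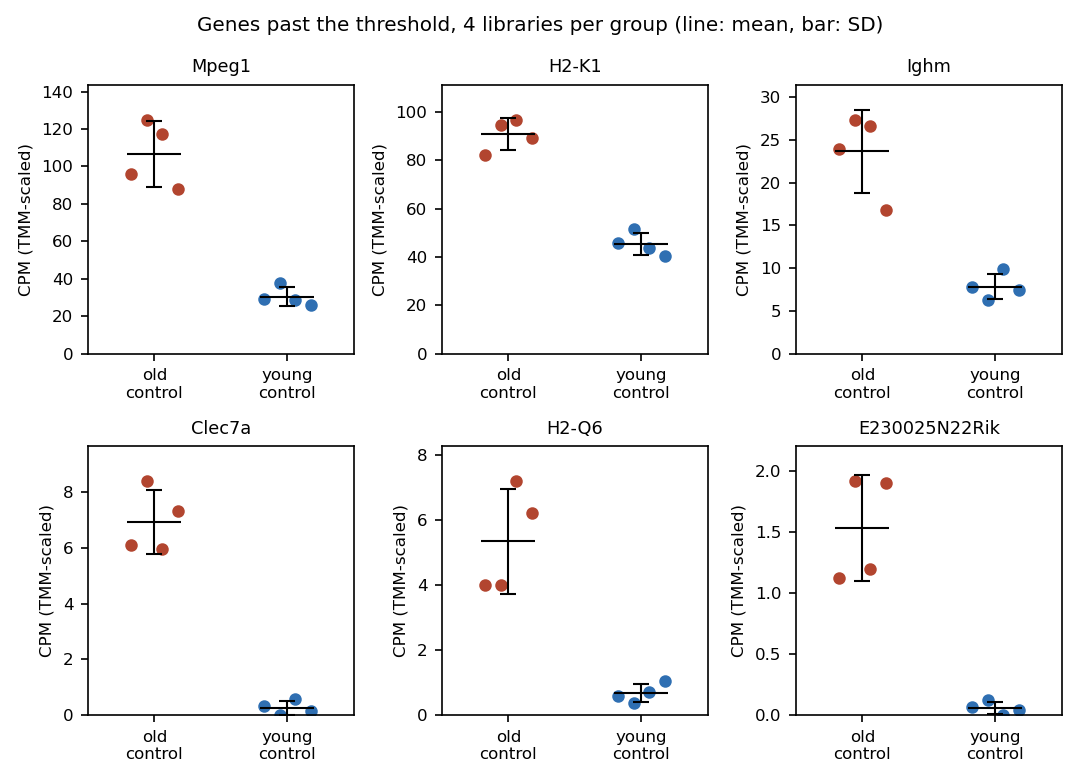
The points are TMM-scaled CPM of single libraries for the 6 genes past the threshold, old control left and young control right, with the mean as a line and the SD as a bar (4 libraries each, axes from 0). In each panel all 4 old controls lie above all 4 young controls, from 87.9 to 125 CPM against 25.7 to 37.8 CPM for Mpeg1.

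Other libraries of the series give these genes beside other groups. In the 3 old Gly-Low libraries, also from 25-month-old mice, the means were 95.5 CPM for Mpeg1, 69.1 for H2-K1, 17.4 for Ighm, 7.07 for Clec7a, 3.26 for H2-Q6 and 0.698 for E230025N22Rik. With the 5 acute controls (4 months old, control diet for 1 week) in place of the young controls, in a fit on all 20 libraries, 4 of the 6 genes were called. Mpeg1 was then 1.42, Ighm 1.31, Clec7a 2.97 and E230025N22Rik 3.96 on the log2 scale, while H2-K1, at 0.83 (adjusted p = 0.0709), and H2-Q6, at 1.25 (adjusted p = 0.216), did not pass. That setting uses the same old controls, so its values stand side by side with those above and are no repeat of them. The acute controls and young controls themselves differed in 1009 of 19061 genes (5.29%), although both are young groups on the control diet. Length slopes ran from 0.14 to 0.27 in the acute controls and from −0.32 to 0.28 in the young controls, where only young control 4 was positive. The mitochondrial share ran from 5.35% to 9.11% in the acute controls and from 5.73% to 17.2% in the young controls. The part of these measures in values that change with the young group was not tested.

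Most microglial genes had higher levels in old control, and of the homeostatic and disease-associated lists Clec7a alone passed. The genes that mark resting microglia summed to 500, 540, 562 and 463 CPM in old control 1 to 4 and to 403, 377, 400 and 349 CPM in young control 1 to 4, without overlap. In bulk tissue more cells of a type and more RNA per cell cannot be told apart. Of 14 homeostatic microglia genes, 0 passed, 13 had a positive log2 fold change, 2 did not overlap between the groups (2.57% of all genes were separate in this direction) and 5 passed with the length slope as covariate (1.19% of all genes did so as higher). Their median was 0.55, against 0.02 over all genes tested, and 0.37 with the erythrocyte level as covariate, a measure in which the groups do not overlap. Cx3cr1, the fractalkine receptor, had 48.9, 46.9, 35.5 and 49.1 CPM in old control and 30.1, 25.4, 24.3 and 36.2 CPM in young control (0.64 ± 0.17, adjusted p = 0.233), so the groups overlap through old control 3 and young control 4. P2ry12, the ADP receptor that guides microglial processes, was 0.16 ± 0.37 (adjusted p = 0.923), and its 26.5 to 81.0 CPM in old control overlapped the 21.8 to 57.4 CPM of young control.

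Among 21 genes of disease-associated microglia, 1 passed and 20 had a positive log2 fold change. In this list 9 were separate and higher in old control (2.57% of all genes). With the length slope as covariate 9 passed as higher (1.19% of all genes). The median was 0.78, and 0.24 with the erythrocyte covariate; the part of erythrocyte content in the list values was not tested. Trem2, the lipid-sensing receptor on which this state depends, had 25.7, 30.3, 37.4 and 29.6 CPM in old control 1 to 4 and 12.5, 11.4, 14 and 7.52 CPM in young control 1 to 4. The groups were apart, at 1.44 ± 0.21, but the gene missed the threshold (adjusted p = 0.0736). It passed with the length slope as covariate (1.57, adjusted p = 0.00133). Lyz2, the lysozyme of myeloid cells, had 33.3, 52.4, 46.0 and 58.9 CPM in old control and 8.42, 14, 22 and 7.86 CPM in young control (1.87 ± 0.32, adjusted p = 0.0989), and its log2 fold change was 0.68 with the erythrocyte covariate. Itgax, the integrin CD11c, had 3.77, 2.93, 1.36 and 4.68 CPM in old control and 0.0663, 0.732, 0 and 0.337 CPM in young control, and Cst7, the protease inhibitor cystatin F, had 2.38, 2.82, 0.980 and 3.01 CPM in old control and 0, 0, 0.532 and 0.374 CPM in young control. Both were apart and neither passed (adjusted p = 0.150 for Itgax and 0.227 for Cst7). Apoe (0.24, and −0.25 with the erythrocyte covariate), Tyrobp (0.55) and Spp1 (−0.25) overlapped between the groups, so the members of this list did not all lie apart.

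Genes of the phagocyte lysosome and Fc receptors had a median of 0.43 over 20 tested, with Mpeg1 the 1 that passed. In this list 7 were separate and higher (2.57% of all genes). With the length slope as covariate 9 passed as higher (1.19% of all genes). The median was 0.12 with the erythrocyte covariate. Ctss, a lysosomal protease that trims class II invariant chain, had 183, 275, 316 and 185 CPM in old control and 90.5, 102, 98.5 and 53.8 CPM in young control (1.47 ± 0.25, adjusted p = 0.0950). Fcgr2b, the inhibitory IgG receptor, had 10.5, 12.6, 14.8 and 16.0 CPM in old control and 5.90, 5.37, 4.52 and 4.83 CPM in young control (1.39 ± 0.25, adjusted p = 0.0994). Both genes lay apart without passing. Of 14 complement genes tested, 0 passed, 12 had a positive log2 fold change, 5 were separate and higher and 7 passed with the length slope as covariate, and the median was 0.73 (0.36 with the erythrocyte covariate). C3ar1, a receptor for a fragment of C3, had 5.30, 9.25, 7.71 and 6.63 CPM in old control and 2.65, 2.68, 1.2 and 1.42 CPM in young control (1.87 ± 0.34, adjusted p = 0.0994). C4b, a component of the classical pathway, had 115, 79.3, 24.7 and 194 CPM in old control and 14.8, 6.52, 12.6 and 52.9 CPM in young control. In old control it was lowest in old control 3, the library of lowest length slope, and in young control it was highest in young control 4, the library of highest slope. Its adjusted p was 0.00287 with the length slope as covariate and 0.303 without it.

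Of 16 genes of class I antigen presentation, 2 passed (H2-K1 and H2-Q6). All 16 had a positive log2 fold change (Tap2 at 0.01 and H2-T22 at 0.14 among them). Of these, 8 were separate and higher (2.57% of all genes). With the length slope as covariate 8 passed as higher (1.19% of all genes). The median was 1.01, and 0.76 with the erythrocyte covariate. H2-D1, the other classical heavy chain of this strain, had 102, 84.8, 68.3 and 108 CPM in old control 1 to 4 and 35.2, 20.8, 43.9 and 47.1 CPM in young control 1 to 4. The groups were apart, at 1.30 ± 0.25 (adjusted p = 0.105). B2m, the shared light chain, had 197, 265, 404 and 179 CPM in old control and 148, 180, 173 and 83.6 CPM in young control, where old control 4 lay just below young control 2 (0.84 ± 0.29, adjusted p = 0.383, and 0.00133 with the length slope as covariate). Summed over the list, class I genes had 563 to 791 CPM in old control and 296 to 409 CPM in young control. Class II genes and border macrophage markers had a median of 0.22, with 3 of 14 separate and higher, and a median of −0.67 with the erythrocyte covariate, so the direction of this list turns with it. H2-Ab1 had 7.05, 5.24, 5.75 and 6.85 CPM in old control and 1.39, 1.59, 4.92 and 1.53 CPM in young control (1.39 ± 0.39, adjusted p = 0.257). It was 0.17 with the erythrocyte covariate and 0.08 with the acute controls in place of the young controls. Cd74, the class II chaperone, was 0.38 ± 0.45 (adjusted p = 0.838) and −0.80 with the erythrocyte covariate.

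Interferon-stimulated genes, cytokines and lymphocyte genes held further members that were apart. Of 22 interferon-stimulated genes, 0 passed, 19 had a positive log2 fold change and 5 were separate and higher (2.57% of all genes). With the length slope as covariate 5 passed as higher (1.19% of all genes). The median was 0.64, and −0.25 with the erythrocyte covariate, so the direction of the list turns with it. Oasl2, an antiviral protein, had 20.3, 38.6, 26.4 and 29.7 CPM in old control and 11.0, 18.2, 13.2 and 11.2 CPM in young control (1.10 ± 0.23, adjusted p = 0.136), and the groups were apart. Of 16 tested cytokine and chemokine genes, 0 passed, 4 were separate and higher and the median was 0.64 (0.73 with the erythrocyte covariate). Ccl8, a chemokine of monocytes and macrophages, had 82 counts over the 4 old controls and 0 over the 4 young controls, at least 24.6-fold higher against a floor of 3 counts over the group. It did not pass (adjusted p = 0.0927). Ccl4 had 43 counts in old control and 1 in young control, a ratio of 38.7 with a 95% counting interval of 6.58 to 1563 (adjusted p = 0.0989), and Il1b had 59 counts in old control against 4 in young control (adjusted p = 0.143). Intervals and floors cover counting error only. Ccl8, Ccl4 and Il1b passed the low-count filter through the old libraries alone, so the count of separate members and the median of this list lean to higher.

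Of 18 lymphocyte and immunoglobulin genes, 8 had enough counts to test, of which Ighm passed and 4 were separate and higher (2.57% of all genes). The median was 1.30 (2.47 with the erythrocyte covariate). A low gene can pass the low-count filter through the old libraries alone, as Igkc did. The count of separate members and the median therefore lean to higher in old control and are no support for a rise of the list. Ptprc, the leukocyte antigen CD45 that microglia also carry, had 8.89, 7.67, 9.37 and 9.03 CPM in old control and 3.71, 3.17, 4.04 and 2.58 CPM in young control (1.37 ± 0.22, adjusted p = 0.0950). Igkc, the kappa light chain, had 5.16, 6.03, 0.682 and 2.97 CPM in old control and 0, 0, 0 and 0.636 CPM in young control (4.28 ± 1.16, adjusted p = 0.235). The untested members were near the floor, with 25 counts in old control and 2 in young control for the T cell gene Cd3g, and 30 in old control and 3 in young control for Cd8a. These low counts set a limit on what can be said of T cells in this tissue. Summed, the list had 35.2 to 47.5 CPM in old control and 14.2 to 19.0 CPM in young control.

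**Figure D3:**
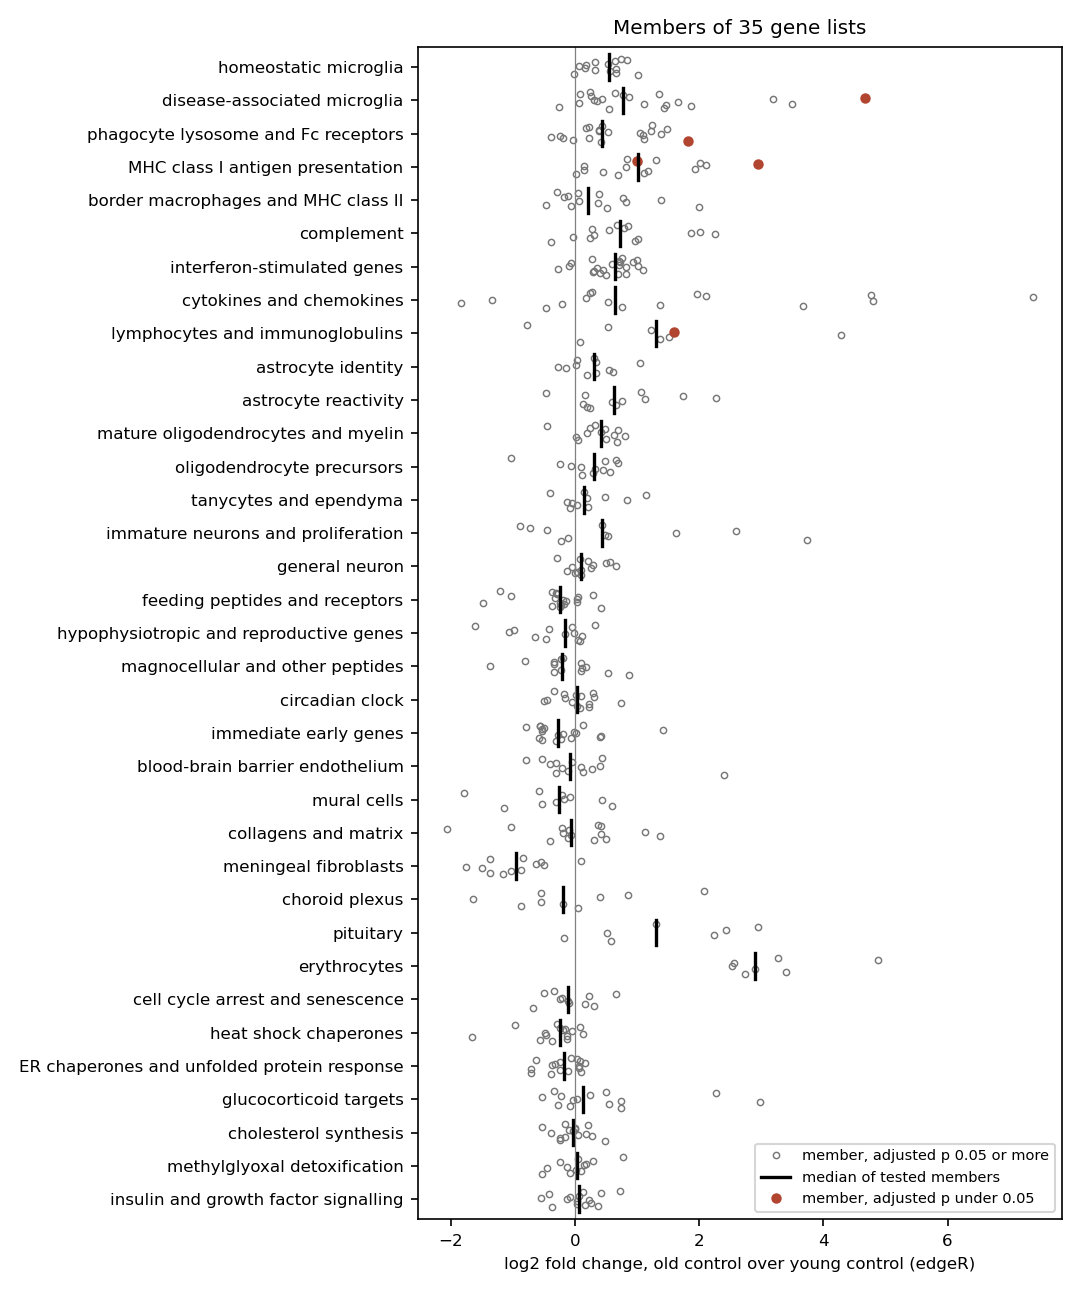
Each open circle is the log2 fold change of old control over young control for 1 tested member of a list, filled red circles are members at an adjusted p under 0.05, and black bars are list medians, with 0 as a grey line. The medians of the immune lists lie from 0.22 for border macrophages and class II to 1.30 for lymphocytes, to the right of the 0.02 of all genes, and erythrocytes stand at 2.91.

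Of 13 myelin genes (median 0.42), 0 passed and 3 were separate and higher (2.57% of all genes). With the length slope as covariate 3 passed as higher (1.19% of all genes). Mbp, a major myelin protein gene, had 3733, 4267, 4211 and 4219 CPM in old control and 3025, 2405, 2877 and 2365 CPM in young control, so that the groups were apart, and it did not pass (0.62 ± 0.15, adjusted p = 0.191). Mobp had 1059, 1458, 1355 and 1814 CPM in old control and 874, 801, 821 and 743 CPM in young control (0.81 ± 0.19, adjusted p = 0.171). Astrocyte reactivity genes had a median of 0.63 over 12 (0.30 with the erythrocyte covariate), with 2 separate and higher. Gfap, the intermediate filament of astrocytes, had 362, 363, 100 and 646 CPM in old control and 79.8, 31.7, 82.6 and 249 CPM in young control, and overlapped through old control 3 and young control 4 (1.73 ± 0.62, adjusted p = 0.403). Serpina3n, a secreted protease inhibitor of reactive astrocytes, was apart at 160, 146, 185 and 122 CPM in old control against 87.7, 94.9, 87.5 and 91.8 CPM in young control (0.76 ± 0.18, adjusted p = 0.161). With the length slope as covariate 2 genes of this list passed as higher (1.19% of all genes). They were Gfap (1.30, adjusted p = 0.0146) and Serpina3n (0.82, adjusted p = 0.0139). General neuron genes had a median of 0.10 over 14 (−0.05 with the acute controls in place of the young controls), with 0 separate in either direction.

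Among immature neuron and proliferation genes, 0 of 11 tested passed and the separate members went both ways. Dcx, the microtubule protein of migrating young neurons, had 26.4, 21.9, 25.8 and 19.3 CPM in old control and 41.4, 43.0, 36.9 and 33.0 CPM in young control (−0.72 ± 0.16, adjusted p = 0.137). Ccnd2, cyclin D2, had 15.4, 15.7, 11.5 and 11.2 CPM in old control and 24.9, 22.8, 22.5 and 28.8 CPM in young control (−0.88 ± 0.18, adjusted p = 0.136). Both were apart and lower, which 3.12% of all genes were. Top2a, a topoisomerase of dividing cells, had 0.897, 0.902, 0.682 and 1.29 CPM in old control and 0.199, 0.0610, 0 and 0.0374 CPM in young control, with 86 counts in old control against 5 in young control (3.73 ± 0.72, adjusted p = 0.107). With the acute controls it was −0.30 (adjusted p = 0.891), so its direction turns with the young group used.

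Hypothalamic peptide genes showed lower levels in old control for several members, and none passed. The median was −0.24 over 19 feeding genes, −0.16 over 13 hypophysiotropic and reproductive genes and −0.21 over 14 magnocellular and other peptide genes. With the acute controls in place of the young controls these medians were 0.10, 0.17 and 0.33 in the same order, so all 3 turn with the young group used. The acute controls all had positive length slopes and young control 1 to 3 negative ones, and the part of this in the turns was not tested. With the length slope as covariate, 1, 1 and 0 genes of these lists passed as lower, in the same order (1.22% of all genes). Crh, the releasing hormone of the stress axis, had 2.02, 5.47, 6.56 and 2.89 CPM in old control 1 to 4 and 16.4, 11.6, 14.3 and 9.73 CPM in young control 1 to 4. It was the 1 peptide gene whose groups were apart, at −1.62 ± 0.40 (adjusted p = 0.188, and 0.0343 with the length slope as covariate). Over all genes 3.12% were apart and lower. With the acute controls Crh was 0.17 (adjusted p = 0.886). Npy, the orexigenic neuropeptide of the arcuate nucleus, had 28.1, 17.4, 51.3 and 37.9 CPM in old control and 90.9, 93.6, 141 and 50.2 CPM in young control, and its groups overlapped through young control 4 alone. It was −1.48 ± 0.38 (adjusted p = 0.219), and −1.22 with the length slope as covariate (adjusted p = 0.0476). With the acute controls in place of the young controls Npy was 1.41, so its direction turns too. Agrp, made by the same neurons, had 12.1, 8.01, 17.0 and 22.3 CPM in old control and 35.4, 39.0, 42.4 and 21.3 CPM in young control (−1.22 ± 0.34, adjusted p = 0.257), and 0.66 with the acute controls.

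Oxt, the oxytocin precursor, had 96.4, 205, 144 and 207 CPM in old control and 468, 597, 438 and 185 CPM in young control (−1.37 ± 0.34, adjusted p = 0.191), and 0.08 on the log2 scale with the acute controls. Ghrh, the growth hormone releasing hormone, had 8.17, 8.18, 13.5 and 8.91 CPM in old control and 19.2, 22.9, 24.3 and 10.3 CPM in young control (−0.98 ± 0.29, adjusted p = 0.298), and 0.91 with the acute controls. In both genes young control 4, the young library of highest length slope, was the one that met the old range. Hcrt, the orexin precursor, had 56.3, 93.9, 243 and 89.6 CPM in old control and 326, 295, 220 and 150 CPM in young control (−1.04 ± 0.47, adjusted p = 0.540). Pomc, the melanocortin precursor, was 0.42 ± 0.33 (adjusted p = 0.763) and −3.14 with the acute controls. The pituitary genes also had a negative median with the acute controls, −4.56, and the part of pituitary content in the Pomc value was not tested. Avp, vasopressin, was −0.22 ± 0.43 (adjusted p = 0.906) and 0.89 with the acute controls, and old control 4 had 581 CPM against 114 to 240 CPM in the other old controls.

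**Figure D4:**
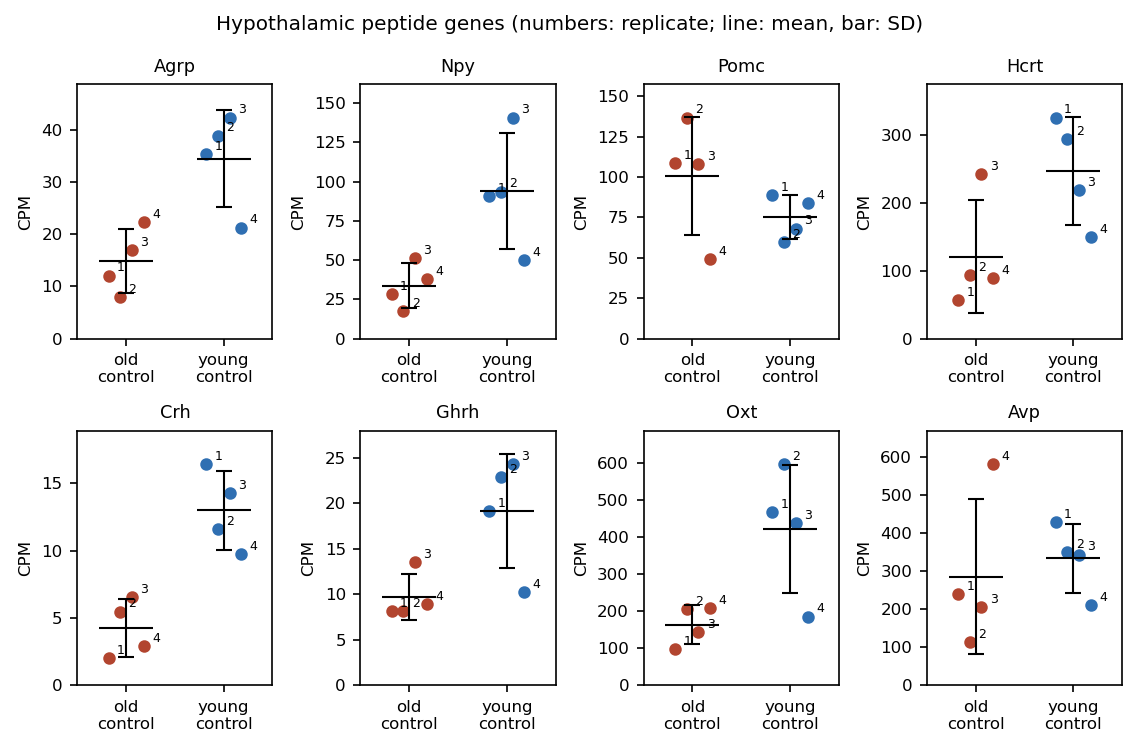
Points are CPM of single libraries for 8 peptide genes, numbered by replicate, old control left and young control right, with the mean as a line and the SD as a bar (4 libraries each, axes from 0). Crh is the panel without overlap, with 2.02 to 6.56 CPM in old control against 9.73 to 16.4 CPM in young control, and young control 4 is the lowest young library for Agrp, Npy, Hcrt, Crh, Ghrh, Oxt and Avp.

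Chaperone and mural cell genes held several members that lay lower in old control. Of 15 heat shock genes, 0 passed and 3 were separate and lower (3.12% of all genes). The same number passed as lower with the length slope as covariate (1.22% of all genes). The median was −0.25, and 0.05 with the acute controls. Ahsa2, a cochaperone of HSP90, had 17.1, 21.1, 16.5 and 16.1 CPM in old control and 32.0, 35.5, 37.5 and 34.0 CPM in young control (−0.97 ± 0.16, adjusted p = 0.0950). Hspb1, the small heat shock protein HSP27, had 5.65, 6.32, 11.5 and 7.69 CPM in old control and 19.0, 37.6, 27.2 and 14.9 CPM in young control (−1.66 ± 0.32, adjusted p = 0.107). Calr, the endoplasmic reticulum chaperone calreticulin, had 341, 345, 363 and 296 CPM in old control and 512, 621, 544 and 401 CPM in young control (−0.63 ± 0.15, adjusted p = 0.177). These groups were apart. With the acute controls the log2 fold changes were −0.25 for Ahsa2 (adjusted p = 0.448), −0.30 for Hspb1 (adjusted p = 0.789) and −0.007 for Calr (adjusted p = 0.991). Of 10 mural cell genes 2 were separate and lower (3.12% of all genes). They were Acta2 (smooth muscle actin, −1.79 ± 0.39, adjusted p = 0.143) and Vtn (vitronectin, −1.14 ± 0.27, adjusted p = 0.169). Both passed with the length slope as covariate (adjusted p = 0.00848 for Acta2 and 0.0209 for Vtn). With the acute controls Acta2 was −0.69 (adjusted p = 0.567) and Vtn −0.55 (adjusted p = 0.284). Acta2 had 3.77, 6.71, 8.01 and 3.05 CPM in old control and 16.4, 24.9, 22 and 11.3 CPM in young control. Meningeal fibroblast genes, whose sums are given above, had a median of −0.96 with 0 of 12 separate, and their part in the mural difference was not tested.

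The lower genes with the smallest p did not pass and are named singly. Ago3, an Argonaute protein of small RNA silencing, had 62.3, 51.2, 43.1 and 51.6 CPM in old control and 94.3, 89.4, 88.4 and 94.2 CPM in young control (−0.81 ± 0.14, adjusted p = 0.0950). Next came Ahsa2, given above, and Dusp11, an RNA phosphatase, with 44.3, 36.4, 44.4 and 56.7 CPM in old control and 90.4, 76.8, 75.9 and 96.3 CPM in young control (−0.90 ± 0.16, adjusted p = 0.0994). Pcgf3, a polycomb group protein, had 35.7, 36.4, 39.9 and 32.1 CPM in old control and 63.9, 62.8, 63.3 and 50.4 CPM in young control (−0.74 ± 0.13, adjusted p = 0.0994). Fubp1, a protein that binds single-stranded DNA near Myc, had 116, 124, 121 and 106 CPM in old control and 198, 194, 193 and 163 CPM in young control (−0.68 ± 0.13, adjusted p = 0.105), and was −0.04 (adjusted p = 0.922) with the acute controls. Ago3, Dusp11, Pcgf3 and Fubp1 were each lower in all 4 old controls than in any young control. On the higher side, after Trem2, came Cd22, an inhibitory lectin of B cells and microglia, with 95 counts in old control and 1 in young control, a ratio of 85.5 with a 95% counting interval of 15 to 3411 (adjusted p = 0.0797). Ly9, a receptor of the SLAM family, had 2.20, 3.95, 3.79 and 3.08 CPM in old control and 0.464, 0.915, 0.177 and 0.299 CPM in young control (2.84 ± 0.45, adjusted p = 0.0927). Arsg, a lysosomal sulfatase, had 49.9, 55.8, 53.9 and 58.3 CPM in old control and 31.9, 25.9, 28.2 and 27.8 CPM in young control (0.94 ± 0.15, adjusted p = 0.0950). Ago3, Dusp11, Pcgf3, Fubp1, Cd22, Ly9 and Arsg passed with the length slope as covariate, at adjusted p from 0.00543 to 0.00814.

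Lists of the clock, immediate early genes, cholesterol synthesis, methylglyoxal detoxification, insulin signalling and senescence had medians from −0.27 to 0.06 (−0.51 to 0.34 with the acute controls), with 0 members past the threshold and at most 1 separate member each. Cdkn1a, the cell cycle inhibitor p21, was −0.34 ± 0.30 (adjusted p = 0.791) and 0.60 with the acute controls. Cdkn2a, which encodes the senescence marker p16, was too low to test, with 31 counts in old control and 1 in young control, a ratio of 27.9 with a 95% counting interval of 4.65 to 1137. Old control 3 held most of these reads, at 0.809 CPM against 0.0897 to 0.228 CPM in the other old controls. Reads of genes that overlap another annotated gene cannot be assigned with certainty, and as the libraries do not keep strand this includes genes on the opposite strand. It touches, for example, Agrp (7 overlapping genes, 5 of them on the opposite strand), Cx3cr1 (9, with 6 on the opposite strand), Gfap (1, on the opposite strand), and Ctss and Ptprc (1 each, on the same strand), but none of the 6 genes that passed.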

How the data were processed

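The authors deposited a table of unnormalized read counts, with 1 whole number for each gene and library. Per the labels' protocols, poly-A RNA from flash-frozen hypothalamus was made into non-directional libraries. Build GRCm38 and the tools featureCounts 1.5.0-p3, HISAT2 2.0.5 and DESeq2 1.20.0 appear, with no role, in the submitters' processing notes; for the annotation release and strand setting, the entry is not given in the sources used here. Of 54532 genes, 54495 matched the GENCODE annotation of GRCm38; the other 37 held at most 0.0198% of a library's counts and stayed in the counts.

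Genes were filtered with filterByExpr and libraries scaled with TMM. The filter asks for enough reads in as many libraries as the smallest group holds. Genes low in young control can thus enter through the old libraries alone. The 11 libraries of old control, young control and old Gly-Low were fitted together in edgeR 4.0.16 (R 4.3.3), and old control was tested against young control by the quasi-likelihood F test at an adjusted p of 0.05 (Benjamini-Hochberg across every tested gene, no minimum fold). CPM are TMM-scaled, with mean and SD over 4 libraries. The length slope regresses a library's departure from average log2 CPM on log2 transcript length. Alternatives used DESeq2 1.42.0, limma 3.58.1 and other settings, and the steps were tested on simulated data.

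The members, lists and tests were chosen with earlier results of these data known, so lists are described by counts and medians and get no test. The genes named are those past the threshold, the 15 protein-coding genes of smallest p in each direction, the 3 members of smallest p in each list and 32 others chosen for their roles. A few further list members are named after their values were seen: the untested lymphocyte genes, Kiss1, Tap2 and H2-T22. Some genes of the lists are not reported here.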

Additional observations from a re-analysis of the deposited data

Results flagged for a closer look

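In 29 of 368 groups of 4 libraries, 1 library stood far from the other 3. For independent, normally spread values chance would mark about 1 in 20. The ratios below are the gap to the nearest library over the range of the group on the log2 scale. Those above Dixon's 95% critical value for 4 samples were marked. The ratio is at its highest whenever 1 library has reads and the other 3 have none, so the rate of 1 in 20 does not hold there.

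Young control 4, the young library with the highest length slope, was the one apart in most cases. It was lower than the other young controls for Pcgf3 (0.927), Fubp1 (0.872), Prpf39 (0.846), Cck (0.896), Fn3k (0.855) and the summed hypophysiotropic and reproductive genes (0.865), magnocellular and other peptides (0.840) and cell cycle arrest genes (0.928). It was higher for Egr1 (0.905), Hsp90ab1 (0.878) and Pik3r1 (0.938). Egr1, an immediate early gene, had 26.9 CPM there against 9.94 to 10.9 CPM in the other young controls. Young control 4 was also the only young control with reads of Cd22 (1.00), Ppbp (1.00), Ccl4 (1.00) and Igkc (1.00). It held 1 read each of Cd22, Ppbp and Ccl4.

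In other young controls, young control 2 was lower for Bcas1 (0.887) and the summed choroid plexus genes (0.862), young control 1 was higher for Tia1 (0.889) and alone held a read of Cdkn2a (1.00), and young control 3 was higher for H2-Ab1 (0.908), at 4.92 CPM against 1.39 to 1.59 CPM.

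Old control 3, the old library with the lowest length slope, was lower for Cx3cr1 (0.860), Csf1r (0.866) and C3 (0.941), and higher for Ubl7 (0.904) and Sdf2l1 (0.847). C3 had 2.60 CPM there against 21.1 to 23.9 CPM in the other old controls. Old control 4 was higher for Vwf (0.832) and Ppbp (0.867), and old control 1 was lower for Mbp (0.902) and Spp1 (0.865).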

How the results depend on the processing

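The 6 calls rest on a small margin. Under 23 alternatives no called gene changed sign, and the log2 fold changes ran from 1.42 to 1.93 for Mpeg1, 0.83 to 1.07 for H2-K1, 1.25 to 3.25 for H2-Q6, 2.97 to 5.42 for Clec7a, 3.96 to 5.49 for E230025N22Rik and 1.31 to 1.73 for Ighm. Leaving out each library in turn gave 0 to 6 calls. The fit on only the 8 libraries compared gave 0 calls (1196 at an unadjusted p under 0.05), where DESeq2 on the 11 libraries gave 388. Fewer calls were also made without old control 3 and young control 2 together (2 calls) and, chosen after seeing the data, with the erythrocyte level as covariate (0 calls), a measure in which the groups do not overlap. More calls were made with all 20 libraries (120), the acute controls as the young group (70), no low-count filter (11), the length slope as covariate (441), that covariate on the 8 libraries, added after seeing the data (331), and limma-voom with quality weights (3920). Without old control 3 and young control 4 together, also added later, there were 2242 calls, but there the length slopes of the groups do not overlap, so slope and age cannot be told apart. Otherwise the cause of these differences was not tested. DESeq2 size factors (7), upper-quartile factors (6) and a filter of CPM above 1 in 4 libraries (6) changed little, and no list median changed sign with the scaling. The pituitary median was −4.56 with the acute controls, against 1.30.

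Correlations between same-numbered samples cannot decide whether the replicate numbers pair them, because length slope also differs within each group. Old and young controls of the same number had correlations of −0.06, 0.32, 0.11 and 0.67 between their deviations, and 2 of 4 old controls correlated best with their own number. With the replicate block on the 8 libraries there were 0 calls (1850 at an unadjusted p under 0.05).

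Over the named genes, 39 changed sign in at least 1 alternative with no call on either side. Depth limits the genes with few reads in young control, such as Clec7a (22 counts), E230025N22Rik (4 counts) and Ccl8 (0 counts).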

Other observations

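Old control 4 differed from the other old controls in several stress and vessel genes. Vwf, the endothelial clotting factor, had 36.0 CPM in old control 4 against 0.937 to 1.97 CPM in the other old controls and 0.610 to 3.63 CPM in young control. Plin4, a lipid droplet protein, had 17.1 CPM there against 0.451 to 1.12 CPM in the other old controls, and Lcn2, an iron-binding acute phase protein, had 16.7 CPM against 1.41 to 3.10 CPM. Fkbp5, a target of the glucocorticoid receptor, had 43.8 CPM against 15.9 to 21.0 CPM, and Avp had 581 CPM against 114 to 240 CPM. These genes were looked up for their list roles and the library was singled out after its values were seen, so no test is given.

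Clic6, a chloride channel protein of the choroid plexus, was apart from young control at 52.9, 42.4, 32.2 and 36.8 CPM in old control against 22.2, 17.3, 22.8 and 29.1 CPM in young control (0.85 ± 0.20, adjusted p = 0.169 by edgeR). The main choroid plexus gene, Ttr, was 0.04 (adjusted p = 0.985), and 1 of 9 tested members of that list was separate and higher (2.57% of all genes were). All listed choroid plexus genes together, Ttr included, summed to only 54.2 to 70.1 CPM in old control and 41.0 to 54.7 CPM in young control. Clic6 was a large part of these sums, so the other members were low. Clic6 therefore gives no measure of choroid plexus content.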
